A study of Rattus norvegicus with 10 samples.

Results

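The genes described here are the core of the RNA interference machinery, the proteins through which a small interfering RNA (siRNA) acts. They were taken by name from a list of 10: the Argonautes Ago1, Ago2, Ago3 and Ago4, the small RNA processing genes Dicer1, Drosha and Tarbp2, and the effector genes Tnrc6a, Tnrc6b and Tnrc6c. All 10 had a row among the 30560 genes of the count table, each under 1 identifier, and all 10 had enough counts to be among the 15186 genes tested. Messenger RNA was sequenced from L6 dorsal root ganglia, which hold the cell bodies of sensory neurons, taken from rats of the Sprague Dawley strain at an age of 7 to 8 weeks. One group of 5 libraries came from rats that received phosphate-buffered saline (PBS). The other 5 came from rats that received 0.75 mg of SCN9A_2544, a divalent siRNA against Scn9a. Both groups carried a surgically placed lumbar intrathecal catheter, were dosed through it 5 days after surgery under isoflurane, and had meloxicam for pain relief. All samples carry a timepoint of 14 days. A group given an siRNA without a target in the rat was not analysed here, so dosing with any siRNA and the sequence of this siRNA cannot be told apart.

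In mammals, Drosha cuts primary microRNA transcripts in the nucleus and Dicer1 cuts the resulting hairpins, or long double-stranded RNA, into short duplexes in the cytoplasm. Tarbp2 (TRBP) is a double-stranded RNA-binding partner of Dicer1. One strand of the duplex is kept by an Argonaute protein, which it guides to matching messenger RNA. Ago2 is the Argonaute known for cutting a fully matched target, which is how an siRNA lowers its messenger RNA, while all 4 Argonautes can carry microRNAs. TNRC6 proteins (GW182 in flies) bind Argonautes and recruit the deadenylase complexes that shorten the tail of a microRNA target. Synthetic siRNAs enter at the Argonaute step and do not need Drosha.

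Scn9a (ENSRNOG00000006639), the target, checks the labels. It stood at 257, 176, 137, 171 and 132 CPM (estimated counts scaled to a common library size and composition) in PBS replicates 1 to 5, and at 103, 83.8, 44.6, 97.4 and 97.7 CPM in SCN9A_2544 replicates 1 to 5. Every treated library lay below every PBS library. After subtraction of each library's pan-neuronal mean (20 genes, log2 CPM), Scn9a differed between the groups by -1.15 (-54.9%). The exact permutation test, two-sided, gave p = 0.00794, and no smaller p is possible with 5 against 5. In the fit of all genes its log2 fold change was -1.03 (SE 0.25), with an edgeR adjusted p = 0.963. The edgeR adjusted p was 0.0301 once neuron content entered the model as a covariate. Neither DESeq2 (adjusted p = 0.0604) nor limma voom (adjusted p = 0.140) called Scn9a.

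Library totals ran from 11832376 to 15420006 estimated counts. The ganglia differed in cell content: the pan-neuronal mean ran from 7.87 to 9.07 log2 CPM in PBS and from 7.65 to 9.06 in treated libraries, with PBS replicate 3 and SCN9A_2544 replicate 3 the lowest of each group. The same libraries held the highest Schwann cell and myelin means, 10.04 and 10.12 log2 CPM. Fewer cells of a type and less RNA per cell cannot be told apart in bulk samples. All 20 pan-neuronal, 15 Schwann cell, 12 satellite glia and 18 macrophage markers were tested, and 0 of them was at 0 counts in any library. The summed satellite glia markers ran from 3690 to 5333 CPM in PBS and from 4989 to 5866 CPM in treated libraries, and the summed macrophage markers from 484 to 733 CPM and from 548 to 1255 CPM. The satellite glia mean was higher in the treated group, 6.19 ± 0.10 log2 CPM under PBS and 6.46 ± 0.08 under SCN9A_2544 (SD, n = 5 each, exact permutation p = 0.00794), and every treated library lay above every PBS library. The macrophage mean was also higher, 3.91 ± 0.21 against 4.37 ± 0.38 log2 CPM (SD, n = 5 each, exact permutation p = 0.0397), with overlap. Log2 fold changes were above 0 for 9 of the 12 satellite glia and 16 of the 18 macrophage markers. They were above 0 for 14 of the 20 pan-neuronal and 4 of the 15 Schwann cell markers, and for 53.4% of all tested genes. For the pan-neuronal and the Schwann cell and myelin means the exact permutation p was 0.786 and 0.643. The p-values of these 4 lists are unadjusted. The part of this cell content in the results below was not tested.

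Differences of the 10 RNA interference genes between PBS and treated ganglia were small, with log2 fold changes from -0.31 (Tnrc6b) to 0.30 (Ago2), and lay within the spread between libraries. By edgeR's quasi-likelihood test, adjusted by Benjamini-Hochberg across the table, 0 of the 10 passed an adjusted p of 0.05, as did 0.0% of all tested genes. The adjusted p-values of the 10 lay between 0.963 and 0.996. Scn9a, the target, had an edgeR adjusted p = 0.963 in the same fit, so 0 calls do not bound the differences. At an unadjusted p under 0.05 the edgeR test had 0 of the 10, against 4.23% of all tested genes. DESeq2 called 0 of the 10 (0.0945% of the genes it adjusted), with 0 at an unadjusted p under 0.05 (4.35% of the 22210 genes with a DESeq2 p). With limma voom and library weights 0 of the 10 passed (0.00659% of all tested genes). An unadjusted p under 0.05 was reached there by 2 of the 10, Tnrc6a (limma adjusted p = 0.188) and Tnrc6b (limma adjusted p = 0.185), and by 20.9% of all tested genes. The groups overlapped for all 10 genes, and for all tested genes they failed to overlap in 0.665%. Of the 10 log2 fold changes 6 were above 0, against 53.4% of all tested genes. Their median was 0.05, with 0.02 over all tested genes, and their median size without regard to sign was 0.10, with 0.16 over all tested genes. Whether each sample is a separate animal is not in the labels, and p-values here measure only the spread from sample to sample.

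**Figure D1:**
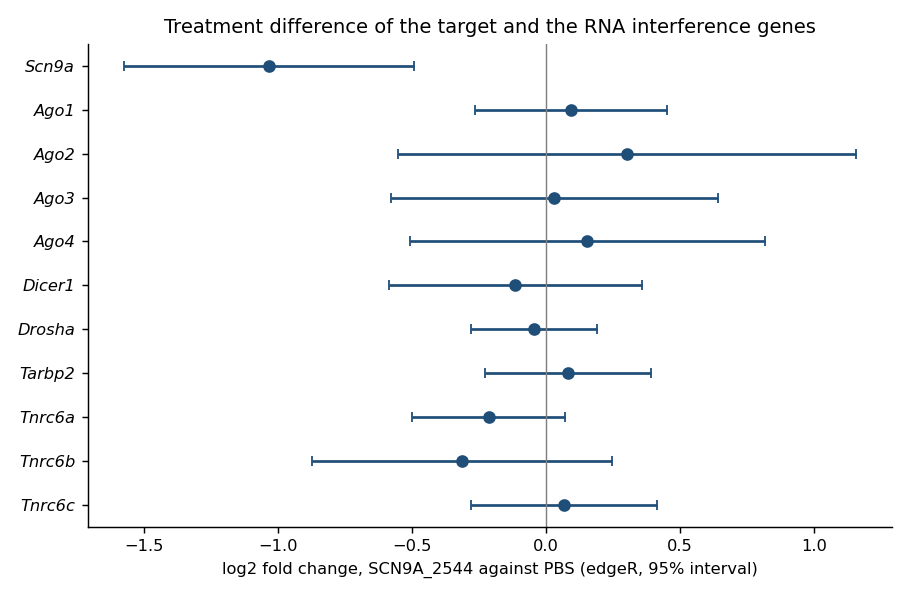
Log2 fold change of SCN9A_2544 against PBS for Scn9a and the 10 RNA interference genes (points, edgeR), with 95% intervals (bars), 5 libraries per group. The interval of Scn9a, from -1.57 to -0.49, lies below 0, while the intervals of the 10 genes include 0, Drosha having the narrowest (-0.28 to 0.19) and Ago2 the widest (-0.55 to 1.16).

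Among the Argonautes, Ago2 (ENSRNOG00000008533) was the most variable. It stood at 6.66, 9.11, 2.39, 7.43 and 8.68 CPM in PBS replicates 1 to 5, and at 14.2, 10.1, 6.54, 3.65 and 7.81 CPM in SCN9A_2544 replicates 1 to 5. PBS replicate 3 was the lowest library, SCN9A_2544 replicate 4 the next lowest and SCN9A_2544 replicate 1 the highest, a 5.95-fold range that crossed the groups. Ago2 averaged 6.85 ± 2.68 CPM under PBS and 8.47 ± 3.98 CPM under SCN9A_2544 (SD, n = 5 each). The log2 fold change was 0.30 (SE 0.39, 95% interval -0.55 to 1.16), which as a fold leaves room for values between 0.683 and 2.23. It was 0.04 without SCN9A_2544 replicate 1 and 0.09 without PBS replicate 3. The biological coefficient of variation of Ago2 was 43.2%, above that of 86.9% of the 1889 tested genes within 0.5 log2 CPM of its mean level. Its estimates were whole numbers in all 10 libraries, between 34 and 195 counts.

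Ago2 and Scn9a ordered the treated libraries differently when both were read in CPM. SCN9A_2544 replicate 1, with the most Ago2, had the highest Scn9a of the treated libraries, 103 CPM. SCN9A_2544 replicate 4, with the least Ago2, stood at 97.4 CPM, and SCN9A_2544 replicate 3, with the lowest Scn9a, had 6.54 CPM of Ago2. Relative to the pan-neuronal mean of the same library, Scn9a stood at -2.37, -2.63, -2.16, -2.08 and -2.30 log2 units in SCN9A_2544 replicates 1 to 5, and between -1.64 and -0.77 in PBS libraries. By that measure the treated libraries fell in the order of Ago2 from replicate 4 (least Ago2, highest relative Scn9a) through replicates 3 and 5. Replicates 1 and 2 changed places. In PBS libraries, which had no siRNA, replicate 3 had the least Ago2 and also the highest relative Scn9a, -0.77. PBS replicate 1, with the next least Ago2, followed at -1.02. PBS replicates 4, 5 and 2, with more Ago2, stood at -1.64, -1.18 and -1.17. Because the pan-neuronal mean is subtracted, relative Scn9a itself contains the neuron content of the library. That mean was 9.06, 9.02, 7.65, 8.68 and 8.91 log2 CPM in SCN9A_2544 replicates 1 to 5. The part of neuron content in these orders was not tested. With 5 treated libraries no correlation was computed.

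Ago1 (ENSRNOG00000055915), an Argonaute that carries microRNAs, stood at 29.7, 39.9, 49.1, 35.5 and 41.5 CPM in PBS replicates 1 to 5, and at 39.2, 34.6, 55.0, 40.3 and 39.7 CPM in SCN9A_2544 replicates 1 to 5. Replicate 3 was the highest library of both groups, and these are the libraries poorest in neuronal markers. Its log2 fold change was 0.09 (SE 0.16, 95% interval -0.26 to 0.45).

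Ago3 (ENSRNOG00000034269) and Ago4 (ENSRNOG00000025596) were counted sparsely, with 14 to 45 and 18 to 48 estimated counts per library. Both carry microRNAs like the other Argonautes. Ago3 stood at 2.20, 2.99, 1.83, 1.20 and 1.87 CPM in PBS replicates 1 to 5, and at 2.33, 1.50, 1.77, 2.39 and 2.36 CPM in SCN9A_2544 replicates 1 to 5. All 5 treated values of Ago3 lay inside the PBS range. Ago4 stood at 1.79, 3.19, 1.62, 1.54 and 1.87 CPM in PBS libraries and, in the same order of replicates, at 3.28, 2.31, 1.29, 2.14 and 2.16 CPM in treated libraries. One library of each group, PBS replicate 2 and SCN9A_2544 replicate 1, stood above the rest. The log2 fold changes were 0.03 (95% interval -0.58 to 0.64) for Ago3 and 0.16 (-0.51 to 0.82) for Ago4.

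**Figure D2:**
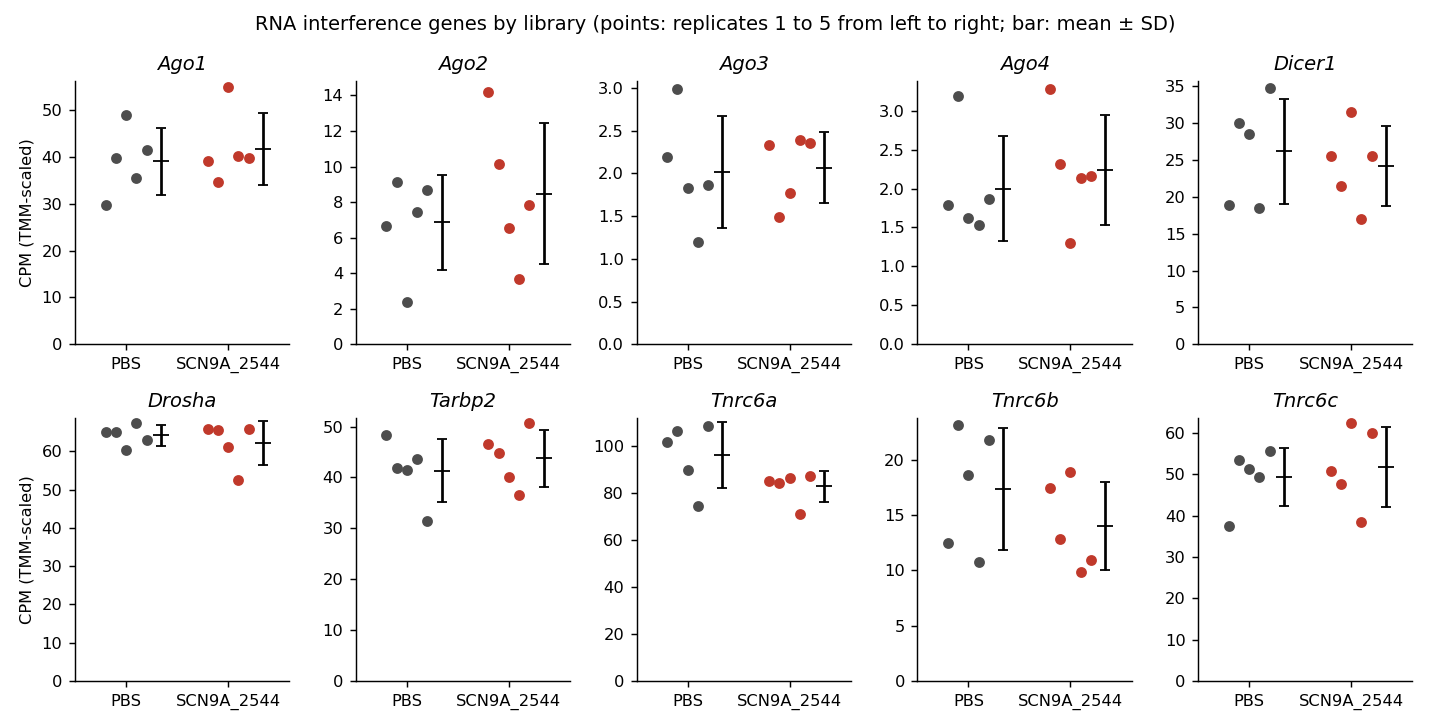
Level of each RNA interference gene in CPM (y axes from 0, one scale per gene) in the 5 PBS and 5 SCN9A_2544 libraries, replicates 1 to 5 from left to right, with the mean ± SD beside them. The groups overlap in every panel, Drosha is the steadiest gene (52.5 to 67.4 CPM) and Ago2 spreads the most (2.39 to 14.2 CPM).

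The Argonautes are close paralogs that share their guide RNAs, so the make-up of the family was also compared within each library, where library scaling plays no part. CPM and counts are not scaled to transcript length, so such shares can be compared between libraries but do not rank the genes by molecules. Ago2 held 16.5%, 16.5%, 4.35%, 16.3% and 16.1% of the summed Argonaute counts in PBS replicates 1 to 5, and 24.1%, 20.9%, 10.1%, 7.53% and 15.01% in SCN9A_2544 replicates 1 to 5. In PBS ganglia 4 libraries lay between 16.1% and 16.5% and replicate 3 stood far below, while the treated libraries spread on both sides of those 4. The mean share was 13.9% ± 5.37 under PBS and 15.5% ± 6.98 under SCN9A_2544 (SD, n = 5 each), a difference of 1.57 points with an exact permutation p = 0.698. Without PBS replicate 3 the difference was -0.83 points, and without SCN9A_2544 replicate 1 it was -0.57 points. The share of Ago1 was 78.0% ± 6.76 under PBS and 76.5% ± 7.86 under SCN9A_2544 (n = 5 each, exact permutation p = 0.730). Ago3 made up 4.06% ± 1.30 and 3.85% ± 0.934 (n = 5 each, exact permutation p = 0.746), and Ago4 3.997% ± 1.14 and 4.18% ± 1.33 (n = 5 each, exact permutation p = 0.849). Adjusted over the 7 shares compared in the Argonaute and TNRC6 families, the p-values lay between 0.722 and 0.849.

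**Figure D3:**
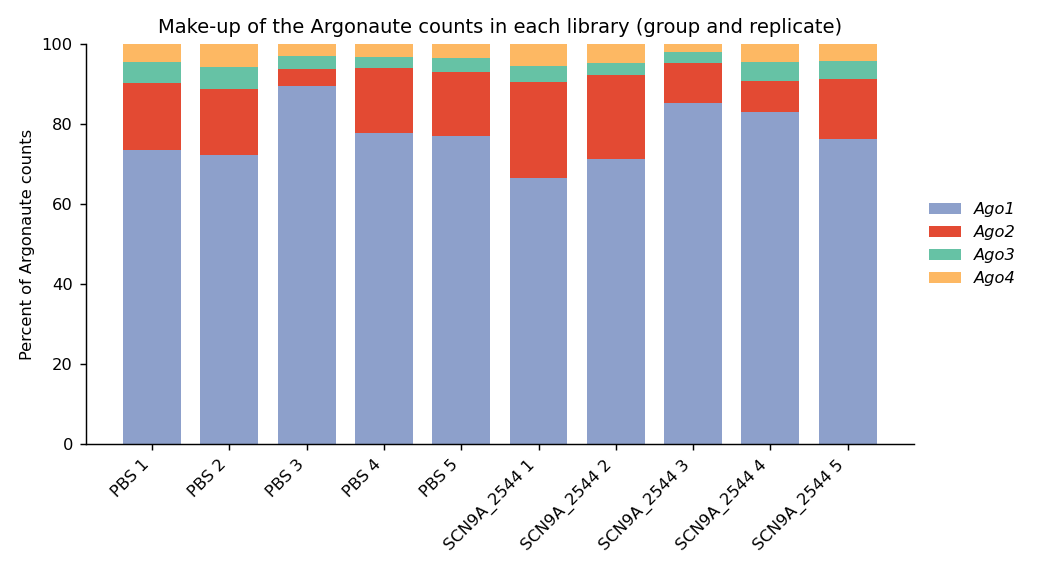
Percent of the summed Argonaute counts held by Ago1, Ago2, Ago3 and Ago4 in each library (stacked bars, group and replicate on the x axis). The Ago2 segment is thin in PBS replicate 3 (4.35%) and SCN9A_2544 replicate 4 (7.53%) and thick in SCN9A_2544 replicate 1 (24.1%).

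Among the processing genes, Drosha (ENSRNOG00000013451), the nuclear RNase III that starts microRNA maturation, was the steadiest of the 10. It stood at 65.0, 65.1, 60.3, 67.4 and 62.9 CPM in PBS replicates 1 to 5, and at 65.8, 65.6, 61.2, 52.5 and 65.9 CPM in SCN9A_2544 replicates 1 to 5. All libraries lay close together apart from SCN9A_2544 replicate 4. Over all 10 libraries Drosha had a coefficient of variation of 6.89%. In the edgeR fit its biological coefficient of variation was 15.4%, and 2.83% of the 2331 tested genes within 0.5 log2 CPM had a lower one. Its log2 fold change was -0.04 (SE 0.11), and the 95% interval as a fold ran from 0.825 to 1.14.

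Dicer1 (ENSRNOG00000010711), the cytoplasmic RNase III, stood at 19.0, 30.0, 28.5, 18.5 and 34.8 CPM in PBS replicates 1 to 5, and at 25.6, 21.5, 31.5, 16.9 and 25.5 CPM in SCN9A_2544 replicates 1 to 5. Both groups spanned nearly the same range, with PBS replicate 5 the highest and SCN9A_2544 replicate 4 the lowest library. The log2 fold change was -0.11 (SE 0.22, 95% interval -0.59 to 0.36). Tarbp2 (ENSRNOG00000042355), whose protein helps Dicer1 and the loading of Argonautes, stood at 48.4, 41.8, 41.4, 43.7 and 31.4 CPM in PBS libraries and at 46.5, 44.8, 40.1, 36.6 and 50.8 CPM in treated libraries. Its lowest library, PBS replicate 5, was the highest for Dicer1. The log2 fold change of Tarbp2 was 0.08 (SE 0.14, 95% interval -0.23 to 0.39).

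Of the TNRC6 genes, Tnrc6a (ENSRNOG00000024737) had the smallest p of the 10. It stood at 102, 106, 89.9, 74.7 and 109 CPM in PBS replicates 1 to 5, and at 85.3, 84.5, 86.5, 71.3 and 87.6 CPM in SCN9A_2544 replicates 1 to 5. All 5 treated libraries lay below 4 of the PBS libraries, and PBS replicate 4 fell among them. Tnrc6a averaged 96.2 ± 14.1 CPM under PBS and 83.0 ± 6.68 CPM under SCN9A_2544 (SD, n = 5 each). The log2 fold change was -0.21 (SE 0.13, 95% interval -0.50 to 0.07), with an edgeR adjusted p = 0.963, and the gene ranked 1934 by p among all tested genes.

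Tnrc6b (ENSRNOG00000024907) had the lowest log2 fold change of the 10, -0.31 (SE 0.26, 95% interval -0.87 to 0.25). It stood at 12.5, 23.1, 18.6, 10.8 and 21.8 CPM in PBS replicates 1 to 5, and at 17.5, 12.9, 18.9, 9.89 and 10.98 CPM in SCN9A_2544 replicates 1 to 5. The groups overlapped over most of their range. Tnrc6c (ENSRNOG00000022395), the other paralog of this effector family, stood at 37.6, 53.4, 51.2, 49.4 and 55.6 CPM in PBS libraries and at 50.7, 47.5, 62.4, 38.5 and 59.9 CPM in treated libraries, with a log2 fold change of 0.07 (95% interval -0.28 to 0.41). The treated libraries held both the highest value and the second lowest.

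Within the TNRC6 family, Tnrc6c held 30.5% ± 4.33 of the counts under PBS and 34.6% ± 2.67 under SCN9A_2544 (SD, n = 5 each), a difference of 4.10 points that did not pass (exact permutation p = 0.103, adjusted p = 0.722 over the 7 shares). Without PBS replicate 4, which held the highest Tnrc6c share of its group (36.6%), the difference was 5.63 points with an unadjusted exact permutation p = 0.0159. With any other single library left out it ran from 2.66 to 4.71 points, with unadjusted exact permutation p-values from 0.0794 to 0.206. The share of Tnrc6a was 59.0% ± 4.63 and 56.1% ± 3.11 (n = 5 each, exact permutation p = 0.325), and that of Tnrc6b 10.4% ± 2.18 and 9.34% ± 1.94 (n = 5 each, exact permutation p = 0.373).

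A single library, SCN9A_2544 replicate 4, was the lowest of all 10 for 4 of the genes: Dicer1, Drosha, Tnrc6a and Tnrc6b. The share of all tested genes for which this library was lowest is not given, so the count of 4 has no background here. SCN9A_2544 replicate 4 was also the library with the highest macrophage mean, 4.88 log2 CPM, where the others ran from 3.63 to 4.64. It had the largest total, 15420006 estimated counts, and the highest TMM scaling factor, 1.03. The part of these traits in the low values was not tested. Without this library the log2 fold changes were -0.01 for Dicer1, 0.01 for Drosha, -0.16 for Tnrc6a and -0.21 for Tnrc6b. These genes were named because this treated library was their lowest, so a rise on leaving it out was built in.

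Because neuron content ran across the groups, each gene was set against the pan-neuronal mean over the 10 libraries, a family of 10 relations. Ago1 was lower where neuronal markers were higher, with Pearson r = -0.88 (permutation p = 0.00013, adjusted p = 0.0013) and Spearman rho = -0.89 (permutation p = 0.00124, adjusted p = 0.0124). With the group means removed r was -0.93. Without the 2 libraries farthest from the median, PBS replicate 3 and SCN9A_2544 replicate 3, r was -0.61 with an exact permutation p = 0.0986. The relation did not pass without both, but their removal also narrows the range of neuronal means and leaves fewer libraries. Without PBS replicate 3 alone r was -0.86 (unadjusted exact permutation p = 0.000912), and without SCN9A_2544 replicate 3 alone -0.80 (p = 0.00699). The same libraries are the richest in Schwann cell markers, and Ago1 was higher where the Schwann cell and myelin mean was higher. There r was 0.87 (permutation p = 0.00059, adjusted p = 0.0059) and Spearman rho 0.94 (permutation p = 0.0003, adjusted p = 0.003), in a second family of 10 relations added after the first was seen. Without the 2 libraries farthest from the Schwann median, again both replicates 3, r was 0.70 with an exact permutation p = 0.0504. No other gene passed in this second family. The largest other r was 0.72 for Dicer1 (permutation p = 0.0234, adjusted p = 0.117). The largest other rho was -0.73 for Tarbp2 (permutation p = 0.0200, adjusted p = 0.09995). How many of all tested genes run as closely with the Schwann cell and myelin mean is not given. Fewer neurons and more Schwann cells cannot be told apart here.

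Against the pan-neuronal mean, the other 9 genes did not pass after adjustment. Dicer1, Tnrc6b, Tnrc6c and Tnrc6a had r = -0.66, -0.58, -0.48 and -0.21, with adjusted permutation p-values of 0.196, 0.196, 0.216 and 0.612. Tarbp2, Ago4, Ago2, Drosha and Ago3 had r = 0.55, 0.53, 0.52, 0.41 and 0.03, with adjusted permutation p-values of 0.196, 0.196, 0.196, 0.304 and 0.924. The Spearman values of these 9, in the order just given, were -0.68, -0.60, -0.61, -0.43, 0.66, 0.31, 0.44, 0.73 and -0.10, with adjusted permutation p-values from 0.101 to 0.784. Without the same 2 libraries their r values were -0.63, -0.56, -0.26, -0.49, 0.87, 0.01, 0.20, 0.39 and -0.28. The value of 0.87 for Tarbp2 had an unadjusted exact permutation p = 0.0105. For Drosha r was 0.94 without SCN9A_2544 replicate 4, its lowest library, with an unadjusted exact permutation p = 0.000926. That library stands out by its own Drosha value, so this p is a description and not a test of the relation. With any other single library left out r of Drosha ran from 0.34 to 0.42, with unadjusted exact permutation p-values from 0.219 to 0.383. An r beyond 0.7 in either direction was reached by 1 of the 10 genes and by 40.7% of all tested genes, 21.7% above 0.7 and 19.1% below -0.7.

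**Figure D4:**
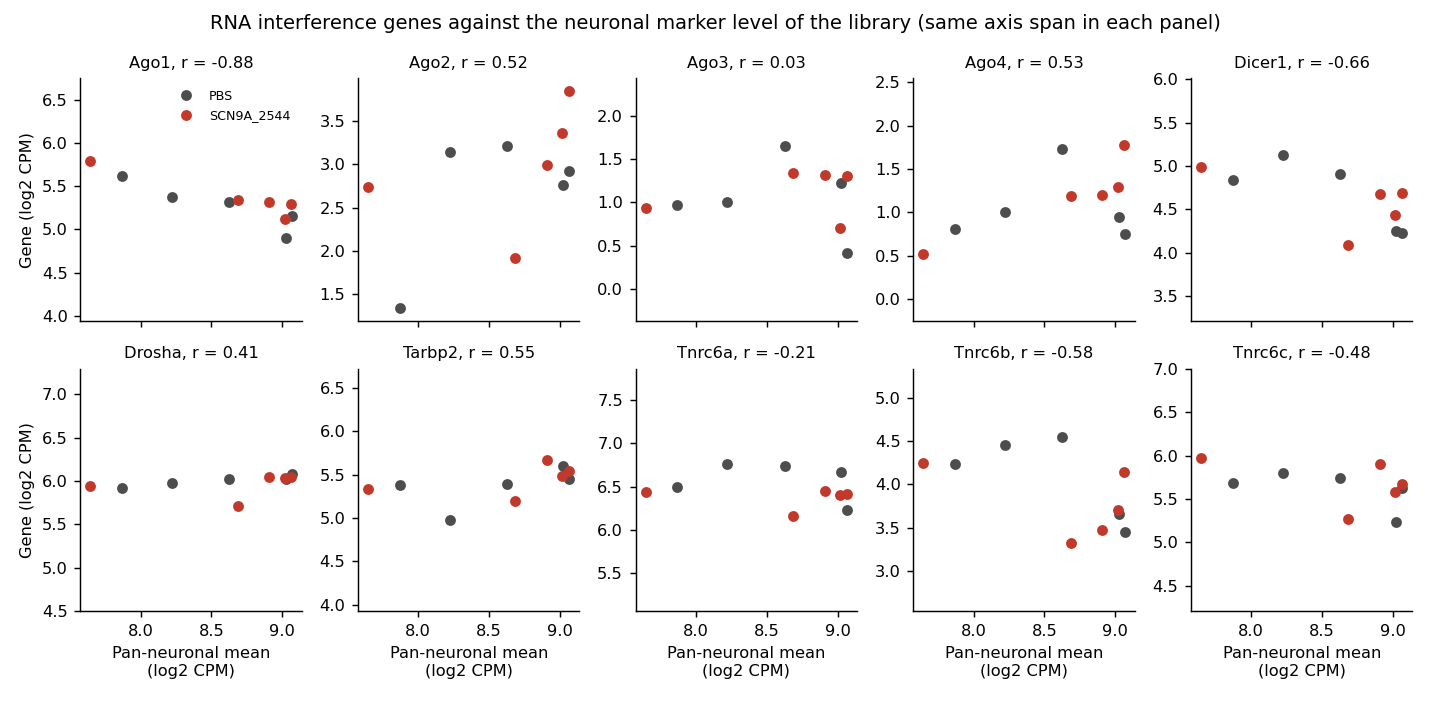
Level of each RNA interference gene (y axis, log2 CPM, the same span in each panel) against the pan-neuronal mean of the library (x axis, log2 CPM), with PBS libraries in grey and SCN9A_2544 libraries in red. Ago1 falls from left to right (r = -0.88) in both groups, Drosha spans a narrow range (52.5 to 67.4 CPM before the log) with SCN9A_2544 replicate 4 below the other libraries, and Ago2 scatters widely (r = 0.52).

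The promoter windows of Ago1, the gene that passed in both families of relations above, and of Drosha, the steadiest gene, are given for comparison. They are from RefSeq on the rat build GRCr8, which is not the build of the counts, and run from 250 bases before to 50 after the annotated start. A window was matched by symbol for 7 of the 10 genes. Letters in capitals mark the CCAAT motif on either strand (CCAAT or ATTGG). Ago1 lies at chr5:144041575-144041874 on the minus strand and Drosha at chr2:63591728-63592027 on the plus strand.
Ago1: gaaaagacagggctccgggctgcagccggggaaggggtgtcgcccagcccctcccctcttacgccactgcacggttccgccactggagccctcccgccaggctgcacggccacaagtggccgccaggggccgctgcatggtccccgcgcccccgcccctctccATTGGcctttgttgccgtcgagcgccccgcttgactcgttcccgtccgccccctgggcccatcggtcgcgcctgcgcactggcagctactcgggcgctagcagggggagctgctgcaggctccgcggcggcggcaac
Drosha: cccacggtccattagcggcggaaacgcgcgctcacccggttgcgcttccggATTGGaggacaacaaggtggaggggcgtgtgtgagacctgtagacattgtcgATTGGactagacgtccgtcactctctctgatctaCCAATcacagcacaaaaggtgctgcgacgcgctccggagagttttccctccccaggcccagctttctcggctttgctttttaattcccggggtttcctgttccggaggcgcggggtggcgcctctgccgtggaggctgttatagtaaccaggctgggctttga
The Ago1 window had a GC content of 73.3% and 1 CCAAT motif, and the Drosha window 59.0% and 3, with a median GC content of 51.7% over the 33469 windows of all genes. CCAAT occurred in 3 of the 7 windows and in 37.5% of all windows. The GC box GGGCGG, which can share end letters with ATTGG, was searched on both strands and occurred in 4 of the 7, Ago1 among them with 2 and Drosha with 0, and in 33.1% of all windows. The TATA motif TATAAA occurred in 0 of the 7 and in 14.2% of all windows. A match is a description of the letters and not of a bound site.

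By a rule that took the 5 tested genes of highest Pearson r with Ago2 over the 10 libraries, on the log2 CPM scale, the genes most like Ago2 were Cdyl2 (r = 0.97), Foxn3 (r = 0.97), Mid1 (r = 0.95), Insr (r = 0.95) and Abl2 (r = 0.95). Foxn3 is a forkhead transcription factor, Mid1 an E3 ubiquitin ligase, Insr the insulin receptor and Abl2 a tyrosine kinase. They are the extremes of all tested genes and share libraries and depth with Ago2, so these values are a description. Foxn3 ranged from 6.74 to 21.7 CPM and Insr from 4.78 to 16.0 CPM over the 10 libraries.

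Genes that work beside these 10 were described from 3 wider lists, by the same edgeR fit. Of 15 processing and export partners 14 were tested and 0 called, higher or lower, with 0 at an unadjusted p under 0.05, against 0.0% and 4.23% of all tested genes. Their median log2 fold change was 0.07, and 10 of the 14 lay above 0. The 4 with the smallest p were Xpo5 (exportin 5, which carries hairpin precursors out of the nucleus) at 0.24 (95% interval -0.09 to 0.57), Dis3l2, an exonuclease that degrades uridylated precursors, at 0.24 (-0.13 to 0.61), the RNA-editing deaminase Adar at 0.16 (-0.10 to 0.42), and Khsrp, a splicing factor that binds some precursors, at 0.24 (-0.21 to 0.68). Xpo5 averaged 31.3 ± 4.54 CPM under PBS and 37.0 ± 6.40 CPM under SCN9A_2544 (SD, n = 5 each), and the groups overlapped.

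Of 20 loading chaperones and Argonaute cofactors 18 were tested and 0 called, against 0.0% of all tested genes. At an unadjusted p under 0.05 there was 1, against 4.23% of all tested genes. This was Zswim8, the ubiquitin ligase adaptor through which Argonautes are degraded on certain targets, at 0.32 (SE 0.14, 95% interval 0.01 to 0.63, edgeR adjusted p = 0.963). Zswim8 stood at 98.1, 111, 96.8, 133 and 109 CPM in PBS replicates 1 to 5, and at 146, 138, 161, 108 and 130.5 CPM in SCN9A_2544 replicates 1 to 5. In treated ganglia 3 libraries lay above every PBS library, and SCN9A_2544 replicates 4 and 5 lay among the PBS values. Fkbp5, an Hsp90 co-chaperone, was at 0.34 (-0.07 to 0.74), Limd1, an adaptor that binds Argonaute and TNRC6 proteins, at 0.35 (-0.07 to 0.78), and Ptges3, the Hsp90 co-chaperone p23, at -0.22 (-0.53 to 0.10). The median of the list was 0.03, with 10 of 18 above 0.

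Of 23 deadenylation, decapping and decay genes, the machinery that TNRC6 proteins recruit, all 23 were tested and 0 called. An unadjusted p under 0.05 was reached by 0 of them. The shares of all tested genes were 0.0% called and 4.23% at that unadjusted p. The median log2 fold change of the list was -0.02, and 10 of the 23 lay above 0. The deadenylase gene Cnot6l averaged 7.66 ± 2.14 CPM under PBS and 5.92 ± 0.675 CPM under SCN9A_2544 (SD, n = 5 each). Its log2 fold change was -0.37 (-0.85 to 0.10). The CCR4-NOT subunit genes Cnot11 and Cnot3 were at 0.24 (-0.11 to 0.59) and 0.25 (-0.15 to 0.64), and the decapping scaffold Edc4 at 0.18 (-0.13 to 0.49). DESeq2 and limma voom also called 0 genes of the 3 lists at an adjusted p of 0.05.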

How the data were processed

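Per the labels' protocols, poly(A) RNA of L6 dorsal root ganglia was sequenced as paired reads of 150 bases. The authors deposited a single table that gives, for each gene and library, an estimated count without normalization. Between 11.6% and 12.4% of values per library were not whole. The build mRatBN7.2 and the tools STAR 2.7.10a and DESeq2 1.44.0 are named, without a role, in the submitters' processing notes. No source used here states the counting program, annotation or strand setting.

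Counts were rounded, because they were estimates where the design assumed counts, and genes were kept by filterByExpr (minimum count 10, total 15). TMM scaling and edgeR 4.0.16 (R 4.3.3) gave the quasi-likelihood test, and p-values were adjusted over 15186 genes by Benjamini-Hochberg, with a threshold of 0.05. The SE is the log2 fold change divided by the square root of F, and the median SE over all genes was 0.22. Log2 CPM used a prior count of 2. DESeq2 1.42.0 and limma 3.58.1 were alternatives. Shares were compared by two-sided exact permutation tests over libraries, correlations with 1e+05 permutations, or exactly with fewer than 10 libraries. Fits were tested on simulated data with known changes, and the outcome is not given here. For edgeR these counts were drawn gene by gene, without differences in cell content between libraries. Named genes are the 10 members, Scn9a, the 4 of smallest p in each wider list and the 5 most like Ago2. Members and lists were chosen with earlier results of these data known. A chi-square per gene ran from 7.80 to 221.5 over the 45 pairs of libraries, so none was a repeat. Argonaute and TNRC6 genes are paralogs, and how shared reads were divided between them was settled before deposit. Estimates of 4 of the 10 members were whole in all libraries. Ipo8 had no row, and Lin28b and Trim71 had too few counts.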

Additional observations from a re-analysis of the deposited data

Results flagged for a closer look

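In 36 sets of 5 values (11 genes in CPM and 7 shares, in each group) a value lay far from the other 4 in 5 cases, where chance gives about 1 in 20. Ago2 held 4.35% of the Argonaute counts in PBS replicate 3, where the other PBS libraries held 16.1% to 16.5%. Ago1 stood at 55.0 CPM in SCN9A_2544 replicate 3, above 34.6 to 40.3 CPM in the other treated libraries. Ago4 stood at 3.19 CPM in PBS replicate 2, where the others ran from 1.54 to 1.87 CPM. Tnrc6a stood at 71.3 CPM in SCN9A_2544 replicate 4, below 84.5 to 87.6 CPM. Tnrc6a held 67.0% of the TNRC6 counts in PBS replicate 1, where the others held 55.4% to 58.4%. PBS replicate 3 and SCN9A_2544 replicate 3 had the lowest pan-neuronal means, and the part of neuron content in these values was not tested.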

How the results depend on the processing

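In 19 alternatives edgeR or its replacements called 0 of the 10 members and 0 of the wider pathway genes, with 0.185 as the smallest adjusted p of a member. Of 190 member values 170 kept their sign. Ago2, Dicer1, Tnrc6a and Tnrc6b had no reversal. With limma voom the log2 fold changes of Ago1, Ago3, Ago4 and Tnrc6c were -0.044, -0.27, -0.017 and -0.045. Ago3 was -0.0016 with upper-quartile scaling, -0.0004 with no filter and -0.031 without the 3 neuron-poorest libraries, where Tarbp2 was -0.025 and Cnot3 -0.030.

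With 1 library left out, values ran from -0.059 to 0.19 for Ago1, -0.10 to 0.22 for Ago3, -0.020 to 0.39 for Ago4, -0.075 to 0.012 for Drosha, -0.028 to 0.14 for Tarbp2, -0.043 to 0.16 for Tnrc6c and -0.011 to 0.36 for Khsrp. Differences of shares ran from -3.71 to 1.31 points for Ago1, -0.829 to 3.57 for Ago2, -0.567 to 0.140 for Ago3 and -0.168 to 0.721 for Ago4, and r of Ago3 with neuron content from -0.087 to 0.33. The cause of these turns was not tested. Of the 55 wider pathway genes 1 had an unadjusted p under 0.05 in the fit of all 10 libraries. The count was 0 in 12 of the 19 alternatives, 3 with either covariate, 8 with limma voom and 0 to 3 with a library left out. Over all genes the count moved as well. It was 642 (4.23%) in the fit of all 10 libraries and 3175 (20.9%) with limma voom. With the pan-neuronal and Schwann cell covariates it was 1470 and 1315 of 15186, and with a library left out 385 to 1642. The log2 fold change of Zswim8 ran from 0.18 to 0.40 over these alternatives.

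Calls over all genes were 17 by DESeq2 and 1 each by limma voom, with the pan-neuronal covariate, with the Schwann cell covariate and without the 3 neuron-poorest libraries, and 0 to 1 with a library left out. Scn9a was -1.13 (edgeR adjusted p = 0.0301) with the pan-neuronal covariate and -1.16 (edgeR adjusted p = 0.0173) with the Schwann cell covariate. By DESeq2 it was -1.05 (DESeq2 adjusted p = 0.0604) and by limma voom -0.89 (limma adjusted p = 0.140), so neither called it. Without the 3 neuron-poorest libraries its edgeR adjusted p was 0.227, and with the replicate block 0.306. Same-numbered libraries deviated together in some pairs only (r from -0.01 to 0.57, own number the best match in 2 of 5), so the numbers are not taken as pairs. The replicate block called 0 genes. With 5 complete pairs its difference of the Ago2 share, 1.57 points, equals the unpaired one by arithmetic. Its exact permutation p was 0.625. The median SE of the members was 0.19 with 5 libraries per group.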
